A study of Homo sapiens with 4 samples.

Results

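The genes described here encode collagens, laminin chains and a small set of matricellular and crosslinking proteins of the extracellular matrix. They were taken by name from the expression table, as every collagen chain gene and every laminin alpha, beta or gamma chain gene that it lists, together with SPARC, THBS1, THBS2, TNC, FN1, LOX, LOXL2, TGFBI and FBN1. This gave 63 of the 32973 listed genes, namely 43 collagens, 11 laminin chains and 9 others. BGN, which the same choice names, was not analysed here.

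The levels come from RNA sequencing of T24T, a variant of the T24 line, and UMUC3, both established from human bladder cancer. Cells of each line had been stably transfected with a plasmid that overexpresses BCUC-1, a circular RNA also known as hsa_circ_0001361, or with an empty vector. The 4 groups were T24T with BCUC-1, T24T with vector, UMUC3 with BCUC-1 and UMUC3 with vector, and all grew in RPMI-1640 medium with serum and antibiotics. Each group held 1 library, so a difference between BCUC-1 and vector within a line has no replicate check and compares those libraries. Whether a transfected line was a clone or a pool is not given in the sources used here. Between 22730112 and 26497894 reads were assigned to genes per library, and the 63 matrix genes held 0.180% and 0.179% of them in T24T (BCUC-1, then vector) and 0.138% and 0.126% in UMUC3. Of 13 urothelial markers 4 reached 1 RPKM (reads per kilobase of gene and per 1000000 assigned reads) in a library, led by the keratin gene KRT7, while the epithelial cadherin gene CDH1 stood at 0 to 0.00686 RPKM. Of 5 mesenchymal markers 4 reached it. None of 6 fibroblast, 4 endothelial or 2 leukocyte markers did, and each of these 3 lists summed to at most 0.449 RPKM in any library. The urothelial sum was 29.7 RPKM with BCUC-1 and 33.0 with vector in T24T, against 6.01 and 6.18 in UMUC3. The mesenchymal sum was 99.4 and 94.9 in T24T, against 295 and 264 in UMUC3. KRT7 led the urothelial sum (25.0 and 27.1 RPKM in T24T, 3.02 and 2.99 in UMUC3), while PPARG was about level. VIM made up most of the mesenchymal sum (87.0 and 82.9, against 267 and 234). ZEB1 and ZEB2 were also higher in UMUC3, but CDH2 and SNAI2 were not. The part of these marker differences between the lines in the results below was not tested. Fewer cells of a kind and less RNA per cell cannot be told apart in such bulk libraries.

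Collagens are trimers of chains that wind into a triple helix. Fibrillar collagens build the stroma, type IV collagen forms the network of basement membranes, and some collagens stay anchored in the plasma membrane and are shed from it. Laminins are cross-shaped trimers of an alpha, a beta and a gamma chain that organise basement membranes and bind integrins. Matricellular proteins such as SPARC, the thrombospondins and tenascin-C are secreted into the matrix but act mainly on cell adhesion and signalling rather than as scaffold. The bladder epithelium rests on a basement membrane of type IV collagen and laminin, which invasive tumours cross.

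Promoter sequences are shown for THBS1, SPARC and COL23A1, among the genes with the largest differences between the lines, and for COL4A2. COL4A2 shares its upstream region with its head-to-head neighbour COL4A1, and the pair was expressed in parallel. THBS1 was abundant in T24T alone, while SPARC and COL23A1 were abundant in UMUC3 alone. Each sequence runs 5′ to 3′ on the strand of its gene, from 250 bases before to 50 bases after a start site, and is taken from RefSeq on GRCh38.p14. Capitals mark 3 short promoter motifs on either strand, the GC box (GGGCGG), the CCAAT box (CCAAT) and the TATA box (TATAAA). The last run of capitals in THBS1 is a GC box match followed directly by a CCAAT box match on the same strand.
COL4A2 (chr13:110307034-110307333, plus strand): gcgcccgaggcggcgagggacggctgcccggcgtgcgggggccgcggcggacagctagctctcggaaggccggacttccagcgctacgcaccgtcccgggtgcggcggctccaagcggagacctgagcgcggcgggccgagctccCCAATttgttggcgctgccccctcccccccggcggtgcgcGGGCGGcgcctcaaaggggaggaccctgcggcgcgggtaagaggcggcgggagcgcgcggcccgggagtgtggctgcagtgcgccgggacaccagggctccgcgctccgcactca
THBS1 (chr15:39580829-39581128, plus strand): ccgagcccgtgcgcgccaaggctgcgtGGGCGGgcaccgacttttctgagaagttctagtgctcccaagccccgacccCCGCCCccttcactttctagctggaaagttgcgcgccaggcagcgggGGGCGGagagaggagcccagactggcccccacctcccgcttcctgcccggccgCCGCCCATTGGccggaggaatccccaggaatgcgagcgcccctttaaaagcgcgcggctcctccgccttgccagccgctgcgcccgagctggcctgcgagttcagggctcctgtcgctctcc
SPARC (chr5:151686866-151687165, minus strand): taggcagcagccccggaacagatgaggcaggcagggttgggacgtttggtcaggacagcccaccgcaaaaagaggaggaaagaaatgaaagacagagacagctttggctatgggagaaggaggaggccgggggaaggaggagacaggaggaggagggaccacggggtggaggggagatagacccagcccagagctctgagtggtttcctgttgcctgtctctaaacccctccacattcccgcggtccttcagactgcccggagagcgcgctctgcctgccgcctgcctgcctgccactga
COL23A1 (chr5:178590344-178590643, minus strand): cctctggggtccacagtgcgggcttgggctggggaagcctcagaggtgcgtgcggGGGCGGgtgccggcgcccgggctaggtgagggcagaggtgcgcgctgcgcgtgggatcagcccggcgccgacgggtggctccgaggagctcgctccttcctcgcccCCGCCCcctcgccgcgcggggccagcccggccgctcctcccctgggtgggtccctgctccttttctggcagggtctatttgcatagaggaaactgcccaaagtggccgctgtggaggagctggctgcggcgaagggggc

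The COL4A2 window held 45 CpG dinucleotides, THBS1 29, COL23A1 28 and SPARC 11. The GC box letters occurred 4 times in THBS1, 2 times in COL23A1 and 1 time in COL4A2, and the CCAAT box letters 1 time each in COL4A2 and THBS1. The SPARC window held none of the 3 motifs, and no window held the TATA box letters. Among all 35116 promoter windows of this length in the table, 45.0% held a GC box, 34.6% a CCAAT box and 11.5% a TATA box. Of the 63 genes, 48 had an entry, with 64 start sites in all, and 57.8% of those windows held a GC box, 28.1% a CCAAT box and 14.1% a TATA box. The annotated start sites of COL4A1 and COL4A2 lie 127 bases apart on opposite strands, and their windows share 226 bases.

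Levels ranged widely within the set. In at least 1 library 25 of the 63 genes reached 1 RPKM, 16 others peaked between 0.1 and 1 RPKM, and 22 stayed below 0.1 RPKM in every library. The 25 were 11 collagens, 7 laminin chains and 7 others. Summed over the 43 collagens, the level was 80.3 RPKM with BCUC-1 and 82.2 with vector in T24T, against 51.2 and 45.4 in UMUC3. The makeup of that sum differed. COL18A1 alone made up 37.0% of it in each T24T library but 1.53% and 1.45% in UMUC3. COL23A1 made up 23.1% and 22.4% in UMUC3 and at most 0.0147% in T24T. The level plot shows that the libraries of a line lie close together, with wide gaps between the lines for SPARC, THBS1, COL18A1 and COL23A1.

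**Figure D1:**
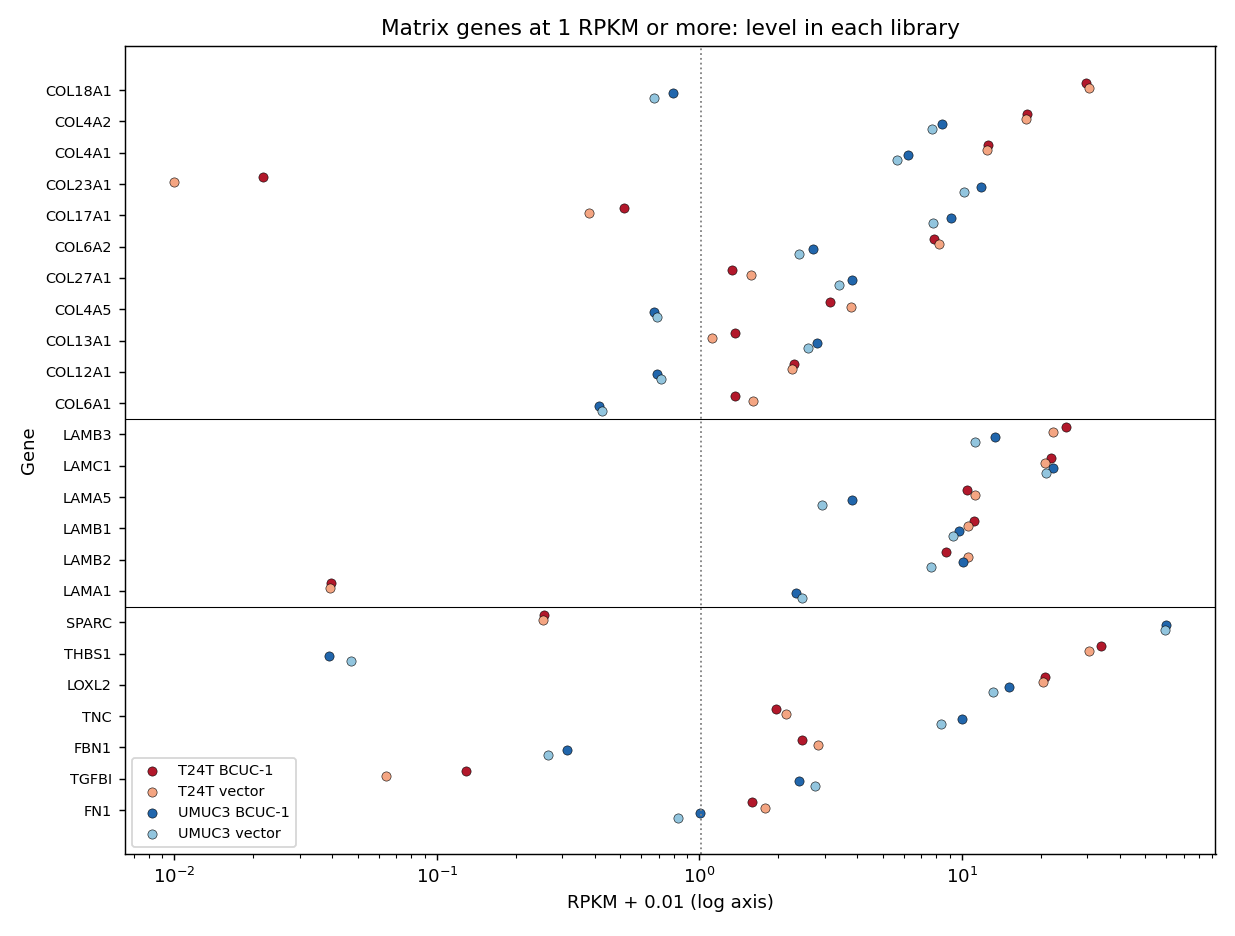
Level of 24 matrix genes at 1 RPKM or more in each of the 4 libraries, as RPKM + 0.01 on a log axis, with collagens above, laminin chains in the middle and other genes below; the dotted line marks 1 RPKM. COL18A1 and THBS1 lie to the right in both T24T libraries, and SPARC, COL23A1 and COL17A1 in both UMUC3 libraries.

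The first comparison set T24T against UMUC3, each line being represented by its BCUC-1 and its vector library. Of the 25 genes that passed the filter of 1 RPKM in at least 2 libraries, 13 were higher and 9 lower in T24T at a limma Benjamini-Hochberg adjusted p under 0.05, and 3 did not pass. Across all 15415 genes tested 70.4% passed (40.8% higher and 29.6% lower in T24T), so most expressed genes separate these lines at that threshold. The median absolute log2 difference of the 25 was 1.05, against 0.45 over all genes tested. At least 2-fold differences were called for 13 of the 25 (7 higher, 6 lower), against 17.9% of all genes (10.2% and 7.73%), and at least 8-fold ones for 4, against 1.34%. Of the 25, 13 had passed the filter through the libraries of 1 line only and so had to differ. These include all 4 genes called past 8-fold (THBS1, COL18A1, SPARC and COL23A1). COL4A5, COL6A1, COL12A1, FBN1, FN1, COL17A1, LAMA1 and TGFBI are also among the 13. Of the other 12, with 1 RPKM or more in a library of each line, 9 passed the test and 4 were called at 2-fold, against 65.5% and 10.5% of the 13048 genes at that level in both lines. The median absolute log2 difference of the 12 was 0.90, against 0.38 over those genes. With no filter, 27 of 63 matrix genes passed (42.9%), against 30% of all genes. Log2 differences and the fold rules here are on log2(RPKM + 1), which understates changes of low genes. Per assigned read, LAMA1 (81.4-fold), TGFBI (29.8), COL17A1 (19.0) and FBN1 (9.48) also differed by more than 8-fold. The median log2 difference over all genes tested was 0.10 rather than 0. The test rests on 1 residual degree of freedom and a variance shared across genes. The libraries of a line differ in the plasmid and are not labelled as replicates, so p measures the spread between these libraries.

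**Figure D2:**
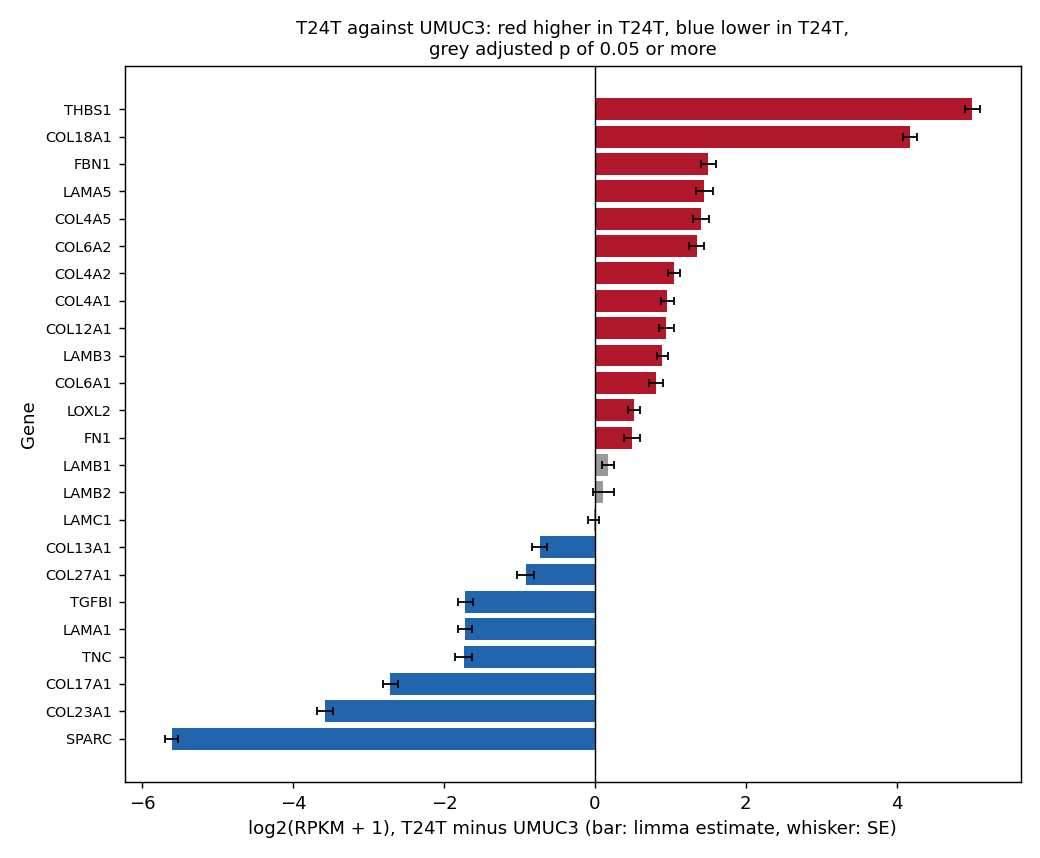
Difference in log2(RPKM + 1), T24T minus UMUC3, for 24 matrix genes that passed the filter; bars are limma estimates, whiskers their SE, red is higher and blue lower in T24T, and grey marks an adjusted p of 0.05 or more. THBS1 (5.001) and SPARC (-5.60) mark the ends, and LAMB1, LAMB2 and LAMC1 lie near 0.

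On log2(RPKM + 1) the largest differences of the 25 were those of THBS1 and SPARC. THBS1 encodes thrombospondin-1, an inhibitor of angiogenesis that also activates latent TGF-beta, and lies on chromosome 15 from 39581079 to 39599466. It had 33.8 RPKM with BCUC-1 and 30.4 with vector in T24T, against 0.0288 and 0.0371 in UMUC3. In reads this was 7308 and 6596 against 6 and 9. The lines did not overlap, and the log2 difference was 5.001 (SE 0.097, limma adjusted p 4.31e-07). Per assigned read, T24T had 965 times the UMUC3 level, with an exact 95% interval of 585 to 1725 that, like all such intervals here, covers counting error only. CTD-2033D15.3 and CTD-2033D15.1, on the other strand, overlap it by 411 and 281 bases and had at most 309 reads, and such reads cannot be told apart where counting ignores strand.

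SPARC, also called osteonectin, binds collagen and shapes its fibrils. It lies on chromosome 5 from 151661096 to 151687165 and showed the opposite pattern. Its level was 0.246 RPKM with BCUC-1 and 0.245 with vector in T24T, against 59.8 and 59.4 in UMUC3. SPARC was thus the highest of the 63 genes in UMUC3 and a minor transcript in T24T. The log2 difference was -5.60 (SE 0.084, limma adjusted p 2.96e-07), and per assigned read UMUC3 had 243 times the T24T level (187 to 322).

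TNC, which encodes the anti-adhesive glycoprotein tenascin-C, had 1.95 RPKM with BCUC-1 and 2.12 with vector in T24T, against 9.98 and 8.31 in UMUC3, a log2 difference of -1.74 (limma adjusted p 2.41e-05). TGFBI, an integrin-binding matrix protein induced by TGF-beta, had 0.119 and 0.0541 RPKM in T24T (BCUC-1, then vector), against 2.39 and 2.75 in UMUC3. Its log2 difference was -1.72 (limma adjusted p 1.84e-05). THBS2, the second thrombospondin of the set, stayed at 0.165 to 0.507 RPKM in the 4 libraries and did not pass the filter. SPARC, TNC and TGFBI were lower in T24T, whereas THBS1 was higher.

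Among the collagens that passed the filter, COL18A1 had the largest difference in favour of T24T. Its product, the core of a basement membrane proteoglycan, is the source of the angiogenesis inhibitor endostatin. COL18A1 had 29.7 RPKM with BCUC-1 and 30.4 with vector in T24T, against 0.784 and 0.660 in UMUC3 (log2 difference 4.17, SE 0.091, limma adjusted p 5.84e-07). On chromosome 21, from 45405137 to 45513720, it shares 1401 bases with SLC19A1 on the other strand. In T24T the SLC19A1 reads numbered 3770 with BCUC-1 and 3699 with vector, against 760 and 732 for UMUC3, while COL18A1 had 5976 and 6142 against 152 and 149. Which reads the genes share was not tested.

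COL4A1, COL4A2 and COL4A5, the type IV collagen genes that passed the filter, were higher in T24T. COL4A5 passed the filter through T24T only and so had to differ. COL4A1 and COL4A2 encode the chains of the ubiquitous basement membrane network, on chromosome 13 from 110148963 to 110307149 and from 110305812 to 110513027. COL4A1 had 12.5 RPKM with BCUC-1 and 12.4 with vector in T24T, against 6.24 and 5.65 in UMUC3 (log2 difference 0.96, limma adjusted p 9.04e-05). COL4A2 had 17.7 and 17.6 RPKM in T24T, against 8.41 and 7.67 in UMUC3 (1.05, limma adjusted p 4.71e-05). The ratio of COL4A2 to COL4A1 RPKM was therefore nearly the same everywhere, at 1.41 in each T24T library and 1.35 and 1.36 in UMUC3 (BCUC-1, then vector). These genes share the upstream region printed above.

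The head-to-head genes COL4A5 and COL4A6 were not balanced in this way. COL4A5, mutated in X-linked Alport syndrome, had 3.14 RPKM with BCUC-1 and 3.76 with vector in T24T, against 0.665 and 0.682 in UMUC3 (log2 difference 1.41, limma adjusted p 4.26e-05). Its neighbour COL4A6, whose annotated 5′ end lies 347 bases away, had 0.0183 to 0.0773 RPKM in the 4 libraries. It did not pass the filter, with 4 and 13 reads in T24T against 12 and 19 in UMUC3 (limma adjusted p with no filter 0.406). COL4A5 thus exceeded COL4A6 by 63.6 to 172 times in T24T and by 8.83 to 11.7 times in UMUC3. COL4A3 and COL4A4 encode chains of the glomerular basement membrane and were detected mainly in T24T. COL4A3 had 41 reads in each T24T library, against 0 with BCUC-1 and 1 with vector in UMUC3. COL4A4 had 65 and 74 reads in T24T, against 2 and 4 in UMUC3. Both passed limma with no filter (adjusted p 0.0287 and 0.0226). The ratio of COL4A4 to COL4A3 RPKM in T24T was 1.46 with BCUC-1 and 1.66 with vector.

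Collagens that span the plasma membrane were higher in UMUC3. The 4 genes of this group summed to 1.87 RPKM with BCUC-1 and 1.48 with vector in T24T, against 23.7 and 20.5 in UMUC3. COL23A1, on chromosome 5 from 178237618 to 178590555, had 1 read with BCUC-1 and 0 with vector in T24T, against 964 and 966 reads in UMUC3, where this was 11.8 and 10.2 RPKM. Its log2 difference was -3.57 (SE 0.10, limma adjusted p 1.37e-06). Per assigned read the UMUC3 libraries had 1853 times the T24T level, with a wide counting interval of 332 to 73233 since it rests on a single T24T read.

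COL17A1 encodes the hemidesmosomal collagen of basal epithelial cells. It had 0.508 RPKM with BCUC-1 and 0.370 with vector in T24T, against 9.09 and 7.73 in UMUC3 (log2 difference -2.71, limma adjusted p 2.78e-06). COL13A1, a transmembrane collagen found at adhesion sites, had 1.35 and 1.11 RPKM in T24T, against 2.80 and 2.58 in UMUC3 (-0.73, limma adjusted p 6.35e-04). COL25A1 had at most 1 read in any library.

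Of 5 genes of collagen VI, which forms beaded filaments, COL6A1 and COL6A2 passed the filter and were higher in T24T. COL6A1 passed the filter through T24T only and so had to differ. COL6A2 had 7.84 RPKM with BCUC-1 and 8.17 with vector in T24T, against 2.69 and 2.39 in UMUC3 (log2 difference 1.35, limma adjusted p 4.15e-05). COL6A1 had 1.36 and 1.59 RPKM in T24T, against 0.403 and 0.417 in UMUC3 (0.81, limma adjusted p 3.41e-04). COL6A3, the largest chain of the usual collagen VI trimer, had 0.00864 to 0.0387 RPKM in the 4 libraries, and COL6A5 and COL6A6 had at most 3 reads. These did not pass with no filter either (limma adjusted p 0.812, 0.661 and 0.861). COL12A1, which encodes a fibril-associated collagen, had 2.28 and 2.25 RPKM in T24T, against 0.677 and 0.705 in UMUC3 (0.95, limma adjusted p 1.69e-04).

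Fibrillar collagens were low in both lines, with sums of 2.93 and 3.30 RPKM in T24T (BCUC-1, then vector) and 6.27 and 5.57 in UMUC3. COL27A1, a fibrillar collagen known from cartilage, was the only one of 10 to reach 1 RPKM. It had 1.32 RPKM with BCUC-1 and 1.56 with vector in T24T, against 3.80 and 3.40 in UMUC3 (log2 difference -0.92, limma adjusted p 3.79e-04). COL1A1, the main collagen of stroma and bone, had 29 and 46 reads in T24T, against 55 and 43 in UMUC3, at 0.125 to 0.246 RPKM. COL5A1, whose product helps to start fibrils, had 0 reads in both T24T libraries, against 182 and 149 in UMUC3. Counting 3 reads over the T24T libraries as the floor, it was 106-fold higher in UMUC3, with an exact 95% interval from 85.7-fold.

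COL5A2, its partner chain, had 0.871 RPKM with BCUC-1 and 0.826 with vector in T24T, against 0.566 and 0.585 in UMUC3, and did not pass between the lines (limma adjusted p with no filter 0.163). COL3A1, the second collagen of soft stroma, had 0 and 1 reads in T24T, against 45 and 47 in UMUC3. COL16A1 had 0 and 2 reads in T24T, against 89 and 81 in UMUC3. With no filter, COL5A1, COL3A1 and COL16A1 each passed limma (adjusted p 0.0231, 0.0232 and 0.0242). COL24A1 went the other way, with 34 and 38 reads in T24T against 6 and 0 in UMUC3, and missed it (limma adjusted p 0.0506). COL7A1, which forms the anchoring fibrils of epithelia, had 38 and 66 reads in T24T, against 144 and 143 in UMUC3 (limma adjusted p with no filter 0.0794). COL11A2 stayed at 0.403 to 0.588 RPKM in all 4 libraries.

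The remaining collagens were near the detection limit. COL2A1, COL5A3, COL8A1, COL8A2, COL9A1, COL10A1, COL11A1, COL14A1, COL15A1, COL19A1, COL20A1, COL21A1, COL22A1, COL26A1 and COL28A1 stayed under 0.1 RPKM in every library, and COL9A2 and COL9A3 peaked at 0.127 and 0.114 RPKM. COL8A1 had 17 and 12 reads in T24T and 0 in both UMUC3 libraries. By the same floor of 3 reads it was 10.1-fold higher in T24T, with an exact 95% interval from 7.68-fold. It did not pass limma with no filter (adjusted p 0.118).

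Of the laminin chains, LAMC1, LAMB1 and LAMB2 did not pass between the lines in the main test. The alpha chain genes LAMA1 and LAMA5 and the beta chain gene LAMB3 did. LAMC1, the gamma chain of most laminins, was almost level, at 21.9 RPKM with BCUC-1 and 20.7 with vector in T24T, against 22.2 and 21.0 in UMUC3. The log2 difference was -0.018 (SE 0.069, limma adjusted p 0.831). LAMB1 had 11.1 and 10.5 RPKM in T24T, against 9.74 and 9.21 in UMUC3 (0.17, limma adjusted p 0.0907), and passed only with limma-voom on the recovered reads (adjusted p 0.0339). LAMB2, the beta chain of mature and vascular basement membranes, had 8.68 and 10.5 RPKM in T24T, against 10.0 and 7.65 in UMUC3. The libraries of the lines overlapped there (0.11, SE 0.14, limma adjusted p 0.503).

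**Figure D3:**
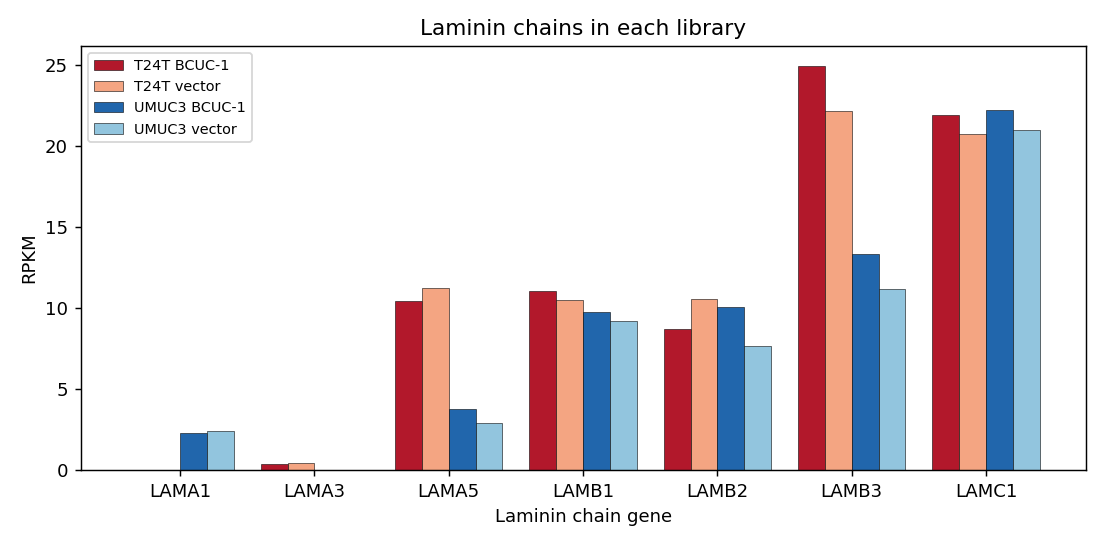
RPKM of 7 laminin chain genes in each library, from BCUC-1 to vector within T24T and then UMUC3. LAMC1 lies between 20.7 and 22.2 RPKM throughout, LAMA5 and LAMB3 are higher in T24T, and LAMA1 is seen in UMUC3 only at this scale.

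Of the alpha chains, which carry the main integrin-binding domain, LAMA5 and LAMA1 differed between the lines in opposite directions. LAMA5, the widespread alpha chain of adult epithelia, had 10.5 RPKM with BCUC-1 and 11.2 with vector in T24T, against 3.79 and 2.92 in UMUC3 (log2 difference 1.45, limma adjusted p 5.80e-05). LAMA1, the alpha chain of embryonic basement membranes, had 0.0294 and 0.0293 RPKM in T24T, against 2.32 and 2.45 in UMUC3 (-1.72, limma adjusted p 1.22e-05). As a share of all laminin alpha chain RPKM, LAMA5 took 95.01% and 94.55% in T24T and 60.6% and 53.0% in UMUC3, and LAMA1 took 0.267% and 0.247% in T24T and 37.1% and 44.4% in UMUC3. LAMA2 stayed at 0.126 to 0.184 RPKM, LAMA4 had at most 3 reads and the gamma chain gene LAMC3 at most 1.

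LAMA3 and LAMB3 encode chains of the laminin that anchors stratified epithelia. LAMB3 was the highest laminin chain of T24T, at 24.9 RPKM with BCUC-1 and 22.2 with vector, against 13.3 and 11.2 in UMUC3 (log2 difference 0.89, limma adjusted p 6.65e-05). LAMA3 had 119 and 135 reads in T24T, against 7 and 3 in UMUC3, or 0.373 and 0.422 against 0.0228 and 0.00837 RPKM, and passed limma with no filter (adjusted p 0.0211). LAMB3 thus stood 66.8 and 52.6 times above LAMA3 in T24T (BCUC-1, then vector) and 586 and 1335 times above it in UMUC3.

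FBN1, the backbone of elastic microfibrils, had 2.46 RPKM with BCUC-1 and 2.82 with vector in T24T, against 0.304 and 0.256 in UMUC3 (log2 difference 1.51, limma adjusted p 3.07e-05). FN1, which encodes fibronectin, had 1.58 and 1.77 RPKM in T24T, against 0.999 and 0.822 in UMUC3 (0.49, limma adjusted p 0.00572, but 0.0775 with no filter). LOXL2, a lysyl oxidase that crosslinks collagen IV and fibrillar collagen, was among the abundant members of both lines. It had 20.7 and 20.4 RPKM in T24T, against 15.1 and 13.1 in UMUC3 (0.52, limma adjusted p 0.00113). LOX, the founding lysyl oxidase, stayed at 0.523 to 0.741 RPKM.

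By mean level, the order in T24T was THBS1, COL18A1, LAMB3, LAMC1, LOXL2, COL4A2 and COL4A1, and in UMUC3 it was SPARC, LAMC1, LOXL2, LAMB3, COL23A1 and LAMB1. In T24T the ranges of THBS1 (30.4 to 33.8 RPKM) and COL18A1 (29.7 to 30.4) met, and the other neighbours among these 7 did not overlap, although LAMC1 (20.7 to 21.9) and LOXL2 (20.4 to 20.7) lay close. In UMUC3 SPARC and LAMC1 were clear of the next gene, whereas LAMB3 (11.2 to 13.3) overlapped both LOXL2 (13.1 to 15.1) and COL23A1 (10.2 to 11.8). LAMB1, TNC, LAMB2 and COL17A1 came next in UMUC3, each overlapping the gene after it.

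Genes that act with these proteins were set beside them from lists chosen by function. Of 5 tested basement membrane partners, 4 were higher and 1 lower in T24T. NID1, which links laminin to collagen IV, had 22.4 RPKM with BCUC-1 and 23.4 with vector in T24T, against 0.0150 and 0.0193 in UMUC3 (log2 difference 4.55, limma adjusted p 5.58e-07). PXDN, the peroxidase that crosslinks collagen IV, was also higher (2.26), as was the heparan sulphate proteoglycan AGRN (1.48). SMOC1 was lower (-2.07), with 0 reads in both T24T libraries against 321 and 369 in UMUC3. All 4 tested genes of the laminin receptor list were higher in T24T. They ran from the dystroglycan gene DAG1 (0.28) and the integrin genes ITGA3 (0.66) and ITGA6 (1.10) to BCAM (1.18). That list leaves out the integrin gene ITGB1, which is counted with the collagen receptors and was lower (-1.08). Collagen receptors were split, 2 of 5 being higher, such as ITGA10 (1.97), and 3 lower in T24T, DDR2 (-2.14), ITGA2 (-1.23) and ITGB1 (-1.08).

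Of 14 tested genes of collagen folding and modification, 5 were higher, 5 lower and 4 did not pass. The prolyl hydroxylase gene P3H3 (1.47) was higher, and CRTAP (-1.51), the lysyl hydroxylase gene PLOD2 (-1.32) and the prolyl isomerase gene PPIB (-0.98) were lower. In the procollagen export list 5 of 9 were higher, 2 lower and 2 did not pass, with KLHL12 (0.89) and the cargo receptor gene MIA3 (0.67) highest. Of 3 tested processing and crosslinking genes 1 was higher, the procollagen peptidase gene ADAMTS3 (1.65), and 2 were lower, PCOLCE2 (-1.07) and PCOLCE (-0.66). Among other matricellular genes, CTGF (-2.79) and CYR61 (-0.61) were lower and THBS3 (0.66) higher. Of 5 tested microfibril and elastic fibre genes, 3 were higher, EFEMP1 (2.50, with 0 reads in both UMUC3 libraries), FBLN1 (1.91) and LTBP2 (0.74), and 2 lower, led by LTBP1 (-1.99). VCAN, the large proteoglycan versican, was the only tested proteoglycan and was higher (2.29). These counts are read against the 40.8% higher and 29.6% lower of all genes tested. Among the named list genes, NID1, PXDN, SMOC1, ITGA10, DDR2, P3H3, ADAMTS3, THBS3, EFEMP1, LTBP1 and VCAN passed the filter through 1 line only. These genes had to differ, and the counts include them.

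The study's own question was which genes respond to BCUC-1. Over both lines, with line in the limma model, 0 of the 25 matrix genes and 0 of 15415 genes passed (0%). Unadjusted, 652 genes had a p below 0.05, and LAMB3 was the 1 matrix gene among them. The smallest limma adjusted p was 0.104 over all genes and 0.998 over the matrix genes. The BCUC-1 effects of the 25 lay between -0.11 and 0.20 on the log2 scale with a median of 0.05, against a median of 0.0035 over all genes tested. LAMB3 had the largest, 0.20 (SE 0.073, limma adjusted p 0.998), and was higher with BCUC-1 in 2 of 2 lines. No matrix gene passed with limma-voom on the recovered reads or at a floor of 5 RPKM either, settings in which 13 and 60 of all genes did. In the 9 lists of genes that act with them, 0 genes passed the main test of BCUC-1 over both lines.

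Within a line, ratios were taken on reads per 1000000 assigned reads, for genes with 20 reads in the pair and 1 such unit in a library. In T24T 33 matrix genes met this floor, of which 2 were at least 1.3-fold higher and 2 lower with BCUC-1, against 2.01% and 5.65% of all genes. THBS2 (38 reads with BCUC-1 and 25 with vector, ratio 1.53, 95% interval 0.897 to 2.64) and COL17A1 (78 and 57 reads, 1.37, 0.964 to 1.97) were the higher genes, with intervals that included 1. COL1A1 (29 and 46 reads, 0.633, 0.383 to 1.03) and COL7A1 (38 and 66 reads, 0.578, 0.377 to 0.874) were the lower genes. The COL7A1 interval excluded 1. No matrix gene differed 2-fold, against 0.087% higher and 0.261% lower of all genes.

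For the 21 matrix genes that had 200 or more reads over the T24T pair, ratios ran from 0.823 to 1.22, and none was past 1.3-fold, against 0.24% higher and 1.29% lower of all genes with that many reads. LAMB2 was the lowest, with 1406 reads with BCUC-1 and 1714 with vector (0.823, 0.767 to 0.884). COL4A5 (648 and 778 reads, 0.836, 0.752 to 0.929), COL27A1 (436 and 516 reads, 0.848, 0.745 to 0.965) and FBN1 (930 and 1072 reads, 0.871, 0.797 to 0.952) were also lower beyond counting error, as were FN1 (646 and 724 reads, 0.896, 0.804 to 0.997) and LAMA5 (3544 and 3812 reads, 0.933, 0.891 to 0.977). THBS1 was slightly higher (1.11, 1.08 to 1.15), as were LAMB3 (2792 and 2494 reads, 1.12, 1.06 to 1.19) and LAMC1 (4344 and 4128 reads, 1.06, 1.012 to 1.10). The intervals of COL4A1 (1.008, 0.952 to 1.07), COL4A2 (1.007, 0.962 to 1.06) and COL18A1 (0.977, 0.942 to 1.012) included 1.

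**Figure D4:**
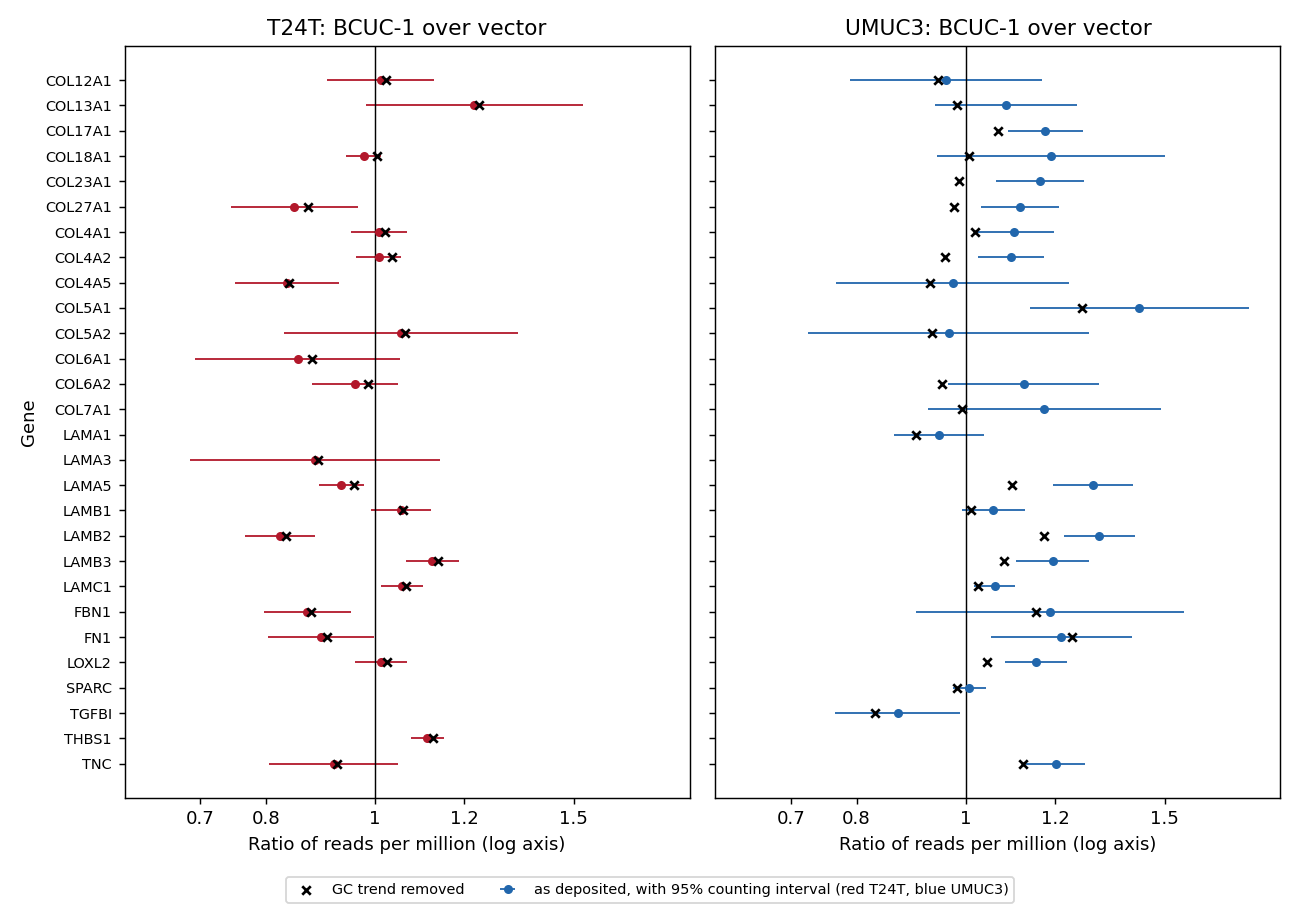
Ratio of reads per assigned read, BCUC-1 over vector, in T24T (left) and UMUC3 (right), on a log axis, for matrix genes whose pair in that line held 200 or more reads; points with whiskers are ratios with 95% counting intervals, and crosses have the GC trend of the line removed. LAMB2 lies at 0.823 in T24T and at 1.31 in UMUC3, and the UMUC3 crosses lie left of their points except for FN1.

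In UMUC3 34 matrix genes met the floor, of which 3 were at least 1.3-fold higher and 1 lower with BCUC-1, against 6.97% and 3.82% of all genes. The higher genes were COL1A1 (55 reads with BCUC-1 and 43 with vector, ratio 1.49, 0.982 to 2.28), COL5A1 (182 and 149 reads, 1.42, 1.14 to 1.78) and LAMB2 (1567 and 1391 reads, 1.31, 1.22 to 1.41). THBS2 was the lower gene (52 and 86 reads, 0.705, 0.490 to 1.01). COL1A1 and THBS2, the genes past 1.3-fold in both lines, lay on opposite sides in T24T, with few reads. No matrix gene differed 2-fold, against 0.306% higher and 0.179% lower of all genes.

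Where the pair held 200 or more reads, 20 of 26 matrix genes were higher and 6 lower with BCUC-1 in UMUC3. Over all genes with that many reads 57.2% were higher. Of the 26, 2 (COL5A1 and LAMB2) were past 1.3-fold, both higher, against 2.95% higher and 1.59% lower of all genes. The median log2 ratio of the 26 was 0.16, against 0.03 for all genes with that many reads. LAMA5 (1236 and 1111 reads, 1.297, 1.195 to 1.41), FN1 (393 and 377 reads, 1.22, 1.05 to 1.40), TNC (2185 and 2121 reads, 1.201, 1.13 to 1.28), LAMB3 (1441 and 1407 reads, 1.19, 1.11 to 1.29), COL17A1 (1345 and 1333 reads, 1.18, 1.09 to 1.27) and COL23A1 (1.16, 1.06 to 1.27) were higher beyond counting error, as were LOXL2 (1.15), COL27A1 (1.12), COL4A1 (1.10), COL4A2 (1.10) and LAMC1 (1.06). TGFBI was lower (425 and 569 reads, 0.871, 0.766 to 0.989). The SPARC interval included 1 (1.007, 0.974 to 1.04).

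Base composition moved with these UMUC3 ratios. Over all genes the median log2 ratio was -0.19 in the lowest and 0.24 in the highest of 20 equal bins of GC content, against -0.039 in both end bins of T24T. When the bin medians were subtracted, 13 of the 26 matrix genes were higher and 13 lower, with a median log2 ratio of -0.00084. COL23A1 then stood at -0.020, COL4A2 at -0.060 and COL18A1 at 0.0085, whereas LAMB2 (0.23), FN1 (0.31), COL5A1 (0.34) and TNC (0.17) stayed above 0 and TGFBI (-0.27) below it. LAMB2 was then 1.17-fold and COL5A1 1.27-fold higher with BCUC-1, both under 1.3-fold. The part of base composition in the UMUC3 ratios was not tested otherwise.

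**Figure D5:**
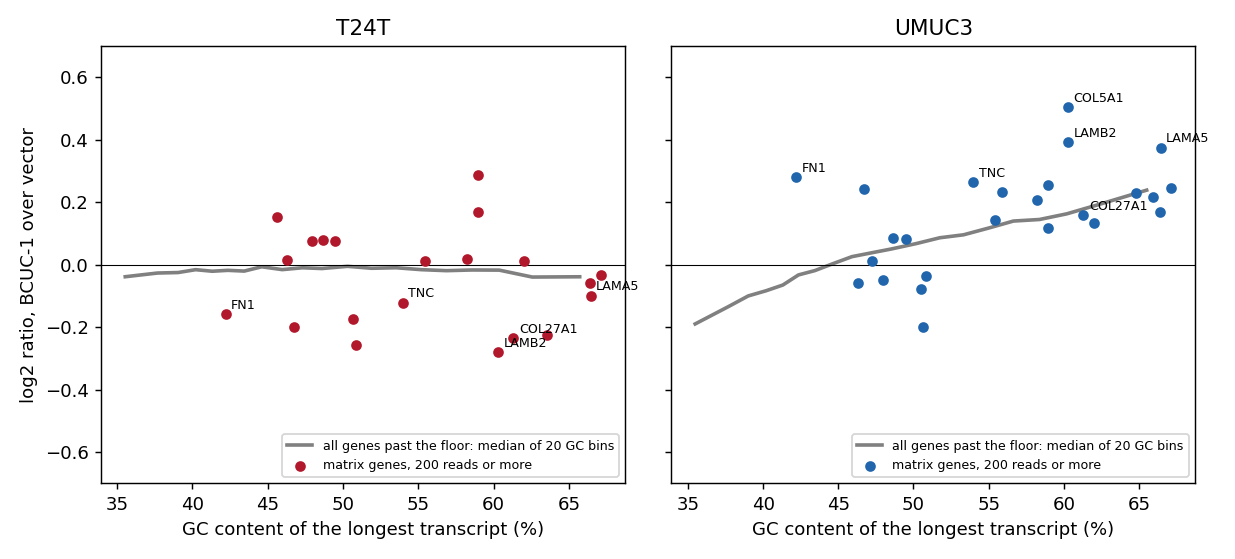
Log2 ratio of BCUC-1 over vector against the GC content of the longest transcript, for matrix genes with 200 or more reads over the pair (points) and for all genes past the floor as medians of 20 bins (grey line), in T24T (left) and UMUC3 (right). The grey line stays between -0.040 and -0.0056 in T24T and climbs from -0.19 to 0.24 in UMUC3, where COL5A1, LAMB2 and LAMA5 lie above it.

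For 18 matrix genes both pairs held at least 200 reads. Of these 7 were higher with BCUC-1 in both lines, 1 was lower in both and 10 lay on opposite sides, so 8 shared a side, and over all 11273 such genes 49.2% did. For 4 of the 18 the counting intervals excluded 1 on opposite sides, against 4.32% of all such genes. The gene lower in both was COL4A5 (0.836 in T24T, 0.974 in UMUC3). Whether the lines differ in their response could not be tested, because the interaction leaves no residual degree of freedom.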

How the data were processed

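RNA was isolated with an RNeasy Mini kit and made into Illumina libraries, per the labels. The authors deposited RPKM per gene and library, scaled by gene length and assigned reads, beside a gene length (unit "other", per the file headers). The submitters' processing notes list Bowtie 0.12.2 without its role; no build or annotation is named in the sources used here. Every RPKM, multiplied by its gene length, came out as whole reads (tolerance 0.001 reads), which gave the reads and depths used here. Of the 63 genes, 62 share a start or end with GENCODE 29, so coordinates are given on GRCh38. Strand was not stated for the counting, and reads of overlapping genes cannot be told apart.

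Columns were assigned to groups by title. Limma 3.58.1 (R 4.3.3) with an intensity trend was fitted on log2(RPKM + 1) of genes with 1 RPKM in at least 2 libraries, with line and treatment as terms, two-sided, Benjamini-Hochberg adjusted over all genes tested. Within lines, log2 ratios used a prior count of 2, and ratios carry exact Clopper-Pearson 95% intervals (scipy 1.17.1). GC content came from each gene's longest transcript in GENCODE 29 (69.1% of genes, all 63 matrix genes). Limma was tested on data simulated for T24T against UMUC3 over 14810 genes, with an assumed dispersion of 0.005 and 50 genes changed at each fold. It recovered 54% of 1.5-fold, 88% of 2-fold and 100% of 4-fold and of 8-fold changes. It also made 69 false calls, more than the 50 genes changed at each fold. The share of false calls was thus well above the adjusted p threshold of 0.05. Far fewer genes were changed there than the 70.4% that passed in the data. All matrix genes were to be named (1 is counted but not reported here), with values where they reached 1 RPKM, and up to 4 genes per surrounding list by size. COL24A1, COL16A1 and other genes under 1 RPKM that are given with values were chosen after their values were seen. The members, lists and settings were chosen with earlier results of these data known.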

Additional observations from a re-analysis of the deposited data

Results flagged for a closer look

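Differences between BCUC-1 and vector that point in opposite directions in T24T and UMUC3, each beyond its counting interval and with at least 200 reads in both pairs, were found for 4 of 18 matrix genes, against 4.32% of the 11273 genes with that many reads. With 1 library per group the difference between the lines was not tested. LAMB2 had a ratio of 0.823 (0.767 to 0.884) in T24T and 1.31 (1.22 to 1.41) in UMUC3. LAMA5 had 0.933 (0.891 to 0.977) in T24T and 1.297 (1.195 to 1.41) in UMUC3. FN1 had 0.896 (0.804 to 0.997) in T24T and 1.22 (1.05 to 1.40) in UMUC3. COL27A1 had 0.848 (0.745 to 0.965) in T24T and 1.12 (1.03 to 1.21) in UMUC3. With the GC trend of each line removed, the log2 ratios in T24T and UMUC3 were -0.26 and 0.23 for LAMB2 and -0.061 and 0.14 for LAMA5. They were -0.14 and 0.31 for FN1, and -0.20 and -0.034 for COL27A1, so COL27A1 no longer lay on opposite sides. The counting intervals and the 4.32% share were not recomputed with the trend removed. Whether the other genes still meet the rule was therefore not tested.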

How the results depend on the processing

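For T24T against UMUC3, 22 matrix genes and 10847 genes passed. At a floor of 5 RPKM, which tests fewer genes, these were 12 of 15 and 6780 of 8830. Leaving out each library in turn kept the number of matrix genes at 22, with 7797 to 10296 genes in all. Directions reversed only for LAMB2 and LAMC1, which did not pass: LAMB2 stood at -0.0095 with equal medians, and leaving out each library gave -0.063 to 0.29 for LAMB2 and -0.058 to 0.023 for LAMC1; the cause was not tested. LAMB1 passed with limma-voom (adjusted p 0.0339), and FN1 did not with no filter (0.0775). The percent of passing genes higher in T24T was 58.0%, and 48.4% with equal medians. For BCUC-1 over both lines, 0 genes passed, against 60 at 5 RPKM, 1 with a pseudocount of 0.1 and 13 with limma-voom, none of them matrix genes. In T24T 1231 genes (4 matrix genes) were past 1.3-fold and 56 (0) past 2-fold. These were 10322 (26) and 1639 (8) with no floor, 191 (0) and 0 (0) at 200 reads, 773 and 35 genes with the GC trend removed, and 704 (0) and 90 with log2(RPKM + 1). In UMUC3 1693 genes (4) were past 1.3-fold and 76 (0) past 2-fold. These were 10980 (19) and 1773 (4) with no floor, 551 (2) and 3 at 200 reads, 818 (2) and 41 with the GC trend removed, and 924 (0) past 1.3-fold with log2(RPKM + 1). No paired analysis was possible because the labels give no replicate numbers; the fit of BCUC-1 holds the line as a term, and without it 0 genes passed. At these depths the intervals of COL1A1 and THBS2 included 1 in both lines.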

Other observations

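SERPINH1, which encodes the collagen chaperone HSP47 and is known from most collagen-producing cells, had 0 reads with BCUC-1 and 1 with vector in T24T, and 0 in both UMUC3 libraries, while the folding gene PPIB had 72.9 to 147 RPKM over the 4 libraries. Whether this reflects its level or how reads were assigned to the gene was not tested.

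HSPG2 and AGRN also lay lower with BCUC-1 in T24T and higher in UMUC3, and were looked at after those values were seen. HSPG2 had log2 ratios of -0.13 in T24T and 0.41 in UMUC3, and AGRN -0.091 and 0.40. With the GC trend removed, HSPG2 stood at -0.091 and 0.18 and AGRN at -0.052 and 0.17. Among the other matricellular genes, THBS3 had -0.48 and 0.49 (-0.46 and 0.35 with the GC trend removed), and CTGF and CYR61 went the other way, at 0.066 and -0.45 for CTGF and 0.27 and -0.19 for CYR61.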
